A study of Mus musculus with 24 samples.

Results

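The genes described here encode enzymes of the citric acid cycle and of itaconate synthesis: Cs, Acod1, Idh1, Idh2, Idh3a, Idh3g, Ogdh, Fh1 and Mdh2. Their probes were those whose single gene symbol in the platform's probe annotation was one of these 9 names, which gave 14 of the 45281 probes. All 9 genes, by 13 of the 14 probes, were among the 9917 genes that passed the detection filter. The remaining probe, a second Ogdh probe, was detected on 0 of 24 arrays.

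The citric acid cycle is the ring of mitochondrial reactions that oxidises acetyl-CoA and passes the electrons to the respiratory chain. Citrate and cis-aconitate are its branch point in macrophages: ACOD1, the enzyme once called IRG1, decarboxylates cis-aconitate to itaconate, a metabolite that activated macrophages make in quantity and that inhibits succinate dehydrogenase. Osteoclasts, the cells that resorb bone, form by fusion of macrophage precursors under RANKL and are rich in mitochondria.

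The cells were bone-marrow-derived macrophages (BMMs) of C57BL/6 male mice aged 5 weeks, grown for 72 h in M-CSF at 30 ng/mL and then kept in it with RANKL added at 100 ng/mL. RNA was taken at 0, 24, 48 and 72 h of RANKL and measured on Illumina mouse bead arrays, 24 in number and 6 per time. The 0 h cells had M-CSF alone, and no later time with M-CSF alone was among the arrays, so RANKL and time in culture cannot be told apart. Whether the 6 samples at each time were grown separately or taken from different mice is not stated in the labels, so a p-value here reflects sample-to-sample spread that may be technical only. In bulk RNA, fewer cells of a type and less RNA per cell cannot be told apart. Precision is limited by the number of arrays.

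Values are log2 signals after quantile normalization, and a gene with several probes is represented by its brightest. A gene was called changed at a Benjamini-Hochberg adjusted p under 0.05 over the 9917 genes in limma. Between 15781 and 17109 probes were detected per array, and arrays of one time correlated at r of 0.9945 to 0.9983. Osteoclast markers were as labelled: 10 of 11 tested were higher at 48 h than at 0 h, against 33.1% of all tested genes. Mmp9 (log2 change 4.37) and Ctsk (3.17), the collagenolytic cathepsin K, were among the higher. Calcr and Atp6v0d2 did not pass the detection filter, and Itgb3, which was dim (mean log2 signal 7.06 at 0 h), changed by -0.01. Of 12 macrophage markers 11 were tested, of which 6 were higher and 3 lower at 48 h (33.1% and 39.2% of all genes). Adgre1 (0.79) and Csf1r (0.78) were among the higher, and Cd163 (-0.72), Marco (-0.34) and Cd14 (-0.11) were the lower. Cd163 was dim, with a mean log2 signal of 7.18 at 0 h and 6.45 at 48 h. Markers of neutrophils, another cell of the marrow, were lower at later times. The summed signal of 12 neutrophil markers was 60000 to 65200 at 0 h, 26200 to 27600 at 24 h, 23600 to 25000 at 48 h and 11200 to 12500 at 72 h. All 12 were lower at each later time, against 37.8%, 39.2% and 39.4% of all genes. The summed signal of 6 proliferation genes was 13100 to 14100, 25600 to 27200, 3040 to 3200 and 2010 to 2150 over the same times. The part of these genes in the enzyme results was not tested.

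The 9 enzymes did not move as a block. At 24 h Acod1, Idh3a, Idh3g and Fh1 were higher than at 0 h and Idh1 was lower, so that 5 of 9 were called, against 67% of all tested genes (29.2% higher and 37.8% lower). At 48 h 8 of 9 were called, against 72.4% of all genes (33.1% higher and 39.2% lower), with Acod1, Idh1, Idh3g and Ogdh higher and Cs, Idh2, Idh3a and Mdh2 lower. At 72 h 8 of 9 were again called, against 73.5% (34.2% higher and 39.4% lower), with 3 higher (Acod1, Idh1 and Ogdh) and 5 lower (Cs, Idh2, Idh3a, Fh1 and Mdh2). Since most genes on these arrays were called, such counts do not set the enzymes apart. Their median log2 change was 0.13 at 24 h, 0.02 at 48 h and -0.32 at 72 h, beside -0.05, -0.03 and -0.03 over all genes.

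Between consecutive times, 7 of 9 enzymes were called at 48 h against 24 h (73.8% of all genes, 39.2% higher and 34.6% lower), 2 higher and 5 lower. At 72 h against 48 h only Idh3g, Fh1 and Mdh2 were called, all 3 lower (36.8% of all genes, 17.4% higher and 19.4% lower). The arrays of both times did not overlap for 4 enzymes at 24 h against 0 h (46.8% of all genes), 7 at 48 h (53.3%) and 8 at 72 h (54.3%). They did not overlap for 6 at 48 h against 24 h (57.1%) and for 2 at 72 h against 48 h (19.5%). At 1.5-fold or more, 3 enzymes were called at 24 h (8.29% of all genes were that much higher and 9.71% lower), 0 at 48 h (10.8% and 12.2%) and 2 at 72 h (11.7% and 13.7%). At that size 4 were called at 48 h against 24 h (14.8% and 14.1%) and 0 at 72 h against 48 h (1.1% and 2.63%).

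**Figure D1:**
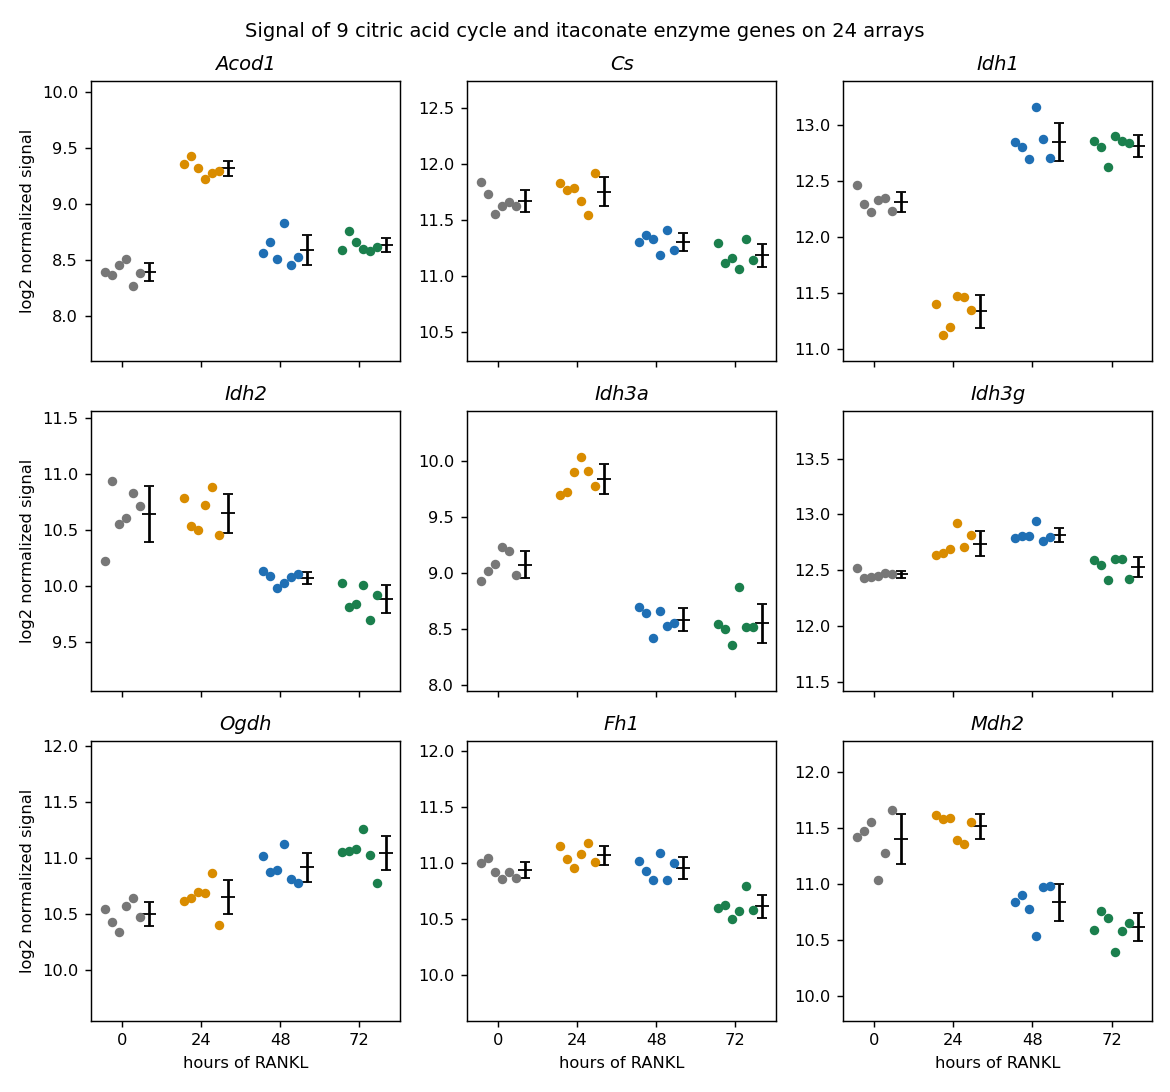
Log2 normalized signal (y axis, each panel spanning 2.5 log2 units) of each enzyme gene against hours of RANKL (x axis). Points are single arrays, 6 at each time, and the bar beside them is the mean ± SD. The Idh1 arrays at 24 h lie between 11.12 and 11.48, below all those at 0 h, while the Acod1 and Idh3a arrays at 24 h lie above those of the other times.

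Acod1 makes itaconate, and its signal was highest at 24 h. The lowest, median and highest of its 6 arrays were 8.26, 8.38 and 8.51 at 0 h, 9.22, 9.31 and 9.43 at 24 h, 8.45, 8.54 and 8.82 at 48 h, and 8.58, 8.61 and 8.75 at 72 h. The 24 h arrays stood above every array of the other times, those of 72 h stood above those of 0 h, and those of 48 h overlapped both. The mean was 9.32 ± 0.07 at 24 h and 8.39 ± 0.08 at 0 h (SD, n = 6 each), a log2 change of 0.92 ± 0.06 (SE; 1.90-fold, limma adjusted p = 9.47e-17). From that peak Acod1 was 1.66-fold lower at 48 h than at 24 h (adjusted p = 3.76e-14), and it remained 1.15-fold and 1.18-fold above 0 h at 48 and 72 h (adjusted p = 0.00229 and 0.000255). Its second probe, detected like the first on 24 of 24 arrays, changed by 1.08, 0.51 and 0.63 at 24, 48 and 72 h. Both probes put the highest level at 24 h, but they differ over the later times, where the second gave 1.43-fold and 1.54-fold. No background was subtracted from the signals, which holds down the fold of dim probes: with normexp background correction the 24 h change of Acod1 was 1.12.

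The promoter of Acod1 is shown because its motifs differ from those of the cycle enzymes described further on. The RefSeq table (GRCm38.p6) held start sites for 8 of the 9 genes, all but Idh3a, with 14 windows of 250 bases before a start. These were searched on both strands for AP-1 (TGANTCA), kappa B (GGG, any 2 bases, TTTCC), interferon-stimulated response (GAAA, any 2 bases, GAAA), sterol regulatory (TCACNCCAC), NRF1 (GCGC, any base, TGCGC), ETS (CCGGAAG), GC box (GGGCGG), E box (CACGTG) and TATA box (TATAAA) letters. No window of the 8 genes held the first 5 of these. The Acod1 window (chr14:103046762-103047011, plus strand) held TATAAA from 28 to 23 bases before the start, in capitals below, and no GC box. It held 2 CG dinucleotides, where the median of all 32851 windows of this length was 6 and 29% had 2 or fewer.
Acod1: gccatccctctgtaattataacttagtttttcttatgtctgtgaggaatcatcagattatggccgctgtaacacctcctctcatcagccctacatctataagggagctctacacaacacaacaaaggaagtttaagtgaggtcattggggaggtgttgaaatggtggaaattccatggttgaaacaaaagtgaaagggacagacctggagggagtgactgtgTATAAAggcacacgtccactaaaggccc
TATAAA stood in 12.4% of all windows and in none of the other 13 windows of these genes, and GGGCGG stood in 32.7%. A match is a description of the letters and not a bound site.

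The genes whose pattern over the 24 arrays was most like that of Acod1, by Pearson r of the log2 signal, were Cav1 (0.967), Fndc7 (0.965), Btbd11 (0.964), Atm (0.960) and Mbd4 (0.959). The arrays fall into 4 times, so these r values largely describe differences between times, and 90 of 9623 genes with a symbol other than a clone name reached 0.9. Cav1, which encodes caveolin-1, was 2.84 log2 units higher at 24 h than at 0 h, and Atm, the kinase of DNA breaks, was 0.84 higher. The tested genes of activated macrophages did not follow Acod1 as a group. Of 15 listed, 10 were tested: Il6, Nos2, Ptgs2 and Nlrp3 did not pass the detection filter, and Il12b had no probe with its symbol. Of the 10 tested, 5 rose and 4 fell at 24 h, and 7 rose and 2 fell at 48 h. At 72 h 6 rose and 4 fell, beside the shares of all genes given above. Their median log2 change was 0.22, 0.65 and 0.37. Cxcl10, an interferon-induced chemokine, rose by 4.44 at 24 h, 1.61 at 48 h and 0.34 at 72 h, where its second probe did not pass. Irf1, an interferon-regulated transcription factor, rose by 1.02, 1.39 and 1.23. Il1b, an inflammatory cytokine that accompanies Acod1 in endotoxin-activated macrophages, fell by 1.41, 1.06 and 1.27 on the log2 scale. Among genes of itaconate handling, Rab32, a small GTPase that takes part in itaconate delivery to bacterial vacuoles, fell by 0.46, 0.37 and 0.69, and Auh, a methylglutaconyl-CoA hydratase, fell by 0.29, 0.49 and 1.22. The other 4 genes of that list did not pass the detection filter. Neutrophils can also express Acod1, and all 12 of their markers were lower at 24 h, where Acod1 was highest. Which cells the Acod1 signal came from was not tested.

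Idh1, the NADP-dependent isocitrate dehydrogenase of cytosol and peroxisomes, fell at 24 h and then stood above its starting level. Its arrays had a lowest, median and highest log2 signal of 12.22, 12.31 and 12.47 at 0 h, 11.12, 11.37 and 11.48 at 24 h, 12.70, 12.83 and 13.17 at 48 h, and 12.63, 12.85 and 12.90 at 72 h. The 24 h arrays were below all others, the 0 h arrays lay between, and the 48 and 72 h arrays overlapped each other above both. Against 0 h the log2 change was -0.98 ± 0.07 at 24 h (1.97-fold lower, adjusted p = 2.08e-15), 0.54 ± 0.07 at 48 h (1.45-fold higher, adjusted p = 6.54e-09) and 0.50 ± 0.07 at 72 h (1.41-fold higher, adjusted p = 2.54e-08). Between 24 and 48 h Idh1 rose 2.86-fold (adjusted p = 2.62e-21), and at 72 h against 48 h it changed by -0.03 (adjusted p = 0.73). The 24 h change ranked at the 2.7th percentile of all genes, and that of 48 h against 24 h at the 97.7th.

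Idh2 encodes the NADP-dependent enzyme of the mitochondrial matrix, which makes the same 2-oxoglutarate. Its arrays read 10.22, 10.66 and 10.93 (lowest, median and highest) at 0 h, 10.46, 10.63 and 10.88 at 24 h, 9.98, 10.08 and 10.13 at 48 h, and 9.69, 9.88 and 10.02 at 72 h. The 0 and 24 h arrays overlapped, and all arrays of 48 and 72 h were below them. Idh2 did not pass the test at 24 h (log2 change 0.00, 95% confidence interval -0.16 to 0.17, adjusted p = 0.965). It fell by 0.57 at 48 h (1.49-fold, adjusted p = 1.23e-07) and by 0.76 at 72 h (1.69-fold, adjusted p = 2.3e-10). At 72 h against 48 h it changed by -0.19 (adjusted p = 0.0699), which was called under 8 of 21 alternatives. Among these were leaving out replicates numbered 1 or 4, the authors' processed values, median scaling and 75th percentile scaling.

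The cytosolic and the mitochondrial NADP enzyme thus parted in both directions. Within each array, Idh1 minus Idh2 averaged 1.67 ± 0.31, 0.69 ± 0.12, 2.78 ± 0.19 and 2.93 ± 0.14 at 0, 24, 48 and 72 h (SD, n = 6 each). Since the probes differ, only the change of this difference can be read: it was -0.98 at 24 h, 1.11 at 48 h and 1.26 at 72 h against 0 h. In a two-sided exact permutation test each gave p = 0.00216, the smallest that 6 against 6 arrays allow, and 0.00216 after Benjamini-Hochberg adjustment over the 6 tests of this kind. Any 6 against 6 values that do not overlap give this p. Among single genes, 46.8%, 53.3% and 54.3% did not overlap with 0 h at 24, 48 and 72 h. Other gene pairs were not tested, so the p does not set this pair apart. All 14 alternatives kept the directions of the Idh1 minus Idh2 changes, with ranges of -1.07 to -0.86 at 24 h and 1.18 to 1.40 at 72 h. Not all of them could differ. Idh1 and Idh2 had 1 kept probe each, so the filter and probe-choice settings repeated the main values. Median and 75th percentile scaling shift whole arrays, which cancels within an array, so they gave the same differences as each other.

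**Figure D2:**
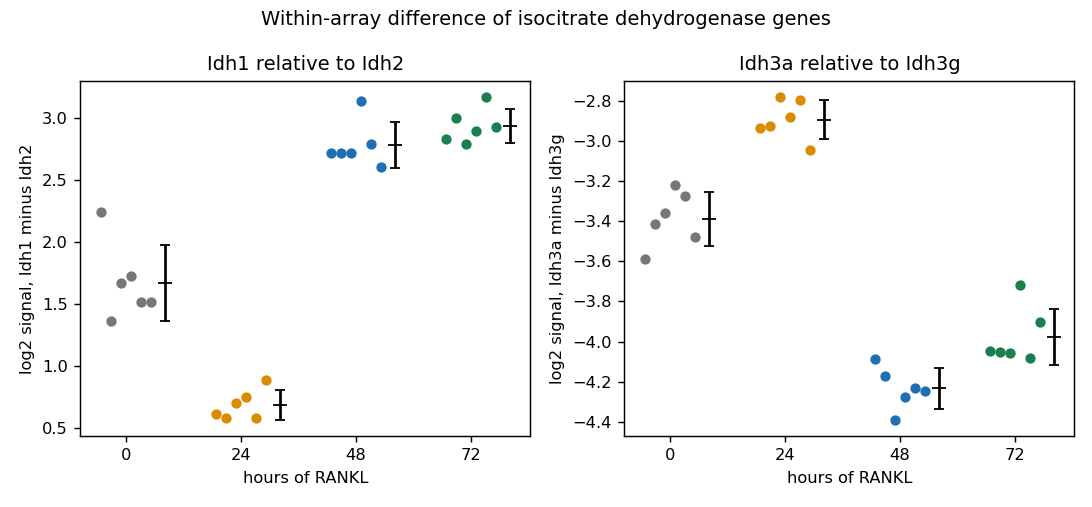
Within-array difference of log2 signal (y axis) of Idh1 minus Idh2 (left) and Idh3a minus Idh3g (right) against hours of RANKL. Points are arrays, 6 at each time, and bars are mean ± SD. Idh1 minus Idh2 averaged 0.69 at 24 h and 2.78 at 48 h, and Idh3a minus Idh3g averaged -2.90 at 24 h and -4.23 at 48 h.

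Idh3a and Idh3g encode the catalytic alpha subunit and the regulatory gamma subunit of one enzyme, the NAD-dependent isocitrate dehydrogenase of the cycle. The Idh3a arrays had 8.93, 9.05 and 9.23 (lowest, median and highest log2 signal) at 0 h, 9.70, 9.84 and 10.04 at 24 h, 8.42, 8.60 and 8.70 at 48 h, and 8.36, 8.52 and 8.88 at 72 h. The 24 h arrays were above all others and the 48 and 72 h arrays below those of 0 h. The log2 change was 0.77 ± 0.07 at 24 h (1.70-fold higher, adjusted p = 6.59e-12), -0.49 at 48 h (1.40-fold lower, adjusted p = 1.47e-07) and -0.52 at 72 h (1.44-fold lower, adjusted p = 3.77e-08). At 48 h Idh3a was 2.39-fold below 24 h (adjusted p = 4.21e-18). A second probe, from a cDNA clone and detected on 7 of 24 arrays, gave 0.36, -0.20 and -0.17 at 24, 48 and 72 h. Of 6 tested proliferation genes, 5 were also higher at 24 h (Pcna changed by 0.00) and all 6 lower at 48 and 72 h. These counts stand beside the shares of all genes given above. Their median log2 change was 1.02 at 24 h, -2.00 at 48 h and -2.62 at 72 h. The part of the proliferation genes in the Idh3a result was not tested.

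The Idh3g arrays had 12.43, 12.46 and 12.52 at 0 h, 12.64, 12.70 and 12.92 at 24 h, 12.76, 12.80 and 12.94 at 48 h, and 12.41, 12.57 and 12.60 at 72 h. Those of 24 and 48 h overlapped each other above the 0 h arrays, and those of 72 h spanned the 0 h range. The log2 change was 0.28 ± 0.05 at 24 h (1.21-fold, adjusted p = 6.09e-06), 0.35 ± 0.05 at 48 h (1.28-fold, adjusted p = 5.11e-08) and 0.06 at 72 h (95% confidence interval -0.03 to 0.16, adjusted p = 0.232). These values depended on the scaling. With the arrays scaled to their 75th percentile the change was 0.05 at 24 h and was not called, and at 72 h it was -0.16; with median scaling the 48 h rise was not called either. The second Idh3g probe rose by 0.45, 0.67 and 0.52 at the 3 times. The probes thus differ at 72 h, where the second was 1.44-fold higher (limma adjusted p = 1.83e-10) and the brighter was not called.

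Relative to Idh3g, Idh3a was higher by 0.49 at 24 h and lower by 0.84 at 48 h and 0.59 at 72 h than at 0 h on the log2 scale. The difference within arrays averaged -3.39 ± 0.14, -2.90 ± 0.10, -4.23 ± 0.10 and -3.98 ± 0.14 at 0, 24, 48 and 72 h (SD, n = 6 each). Each of the 3 changes gave a two-sided exact permutation p of 0.00216, the smallest possible (adjusted p = 0.00216 over the 6 tests). Any pair of genes whose differences do not overlap between the times gives this p, and other pairs were not tested. With the second probe of each gene the 24 h change was -0.10 (adjusted p = 0.229), so the 24 h shift between the subunits rests on the brighter probes. At 48 and 72 h the second probes gave -0.87 and -0.69 (exact permutation, adjusted p = 0.0026 each). The second Idh3a probe was detected on only 7 of 24 arrays and fell by 0.20 and 0.17 at these times. The second Idh3g probe rose by 0.67 and 0.52, so most of these values came from Idh3g.

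**Figure D3:**
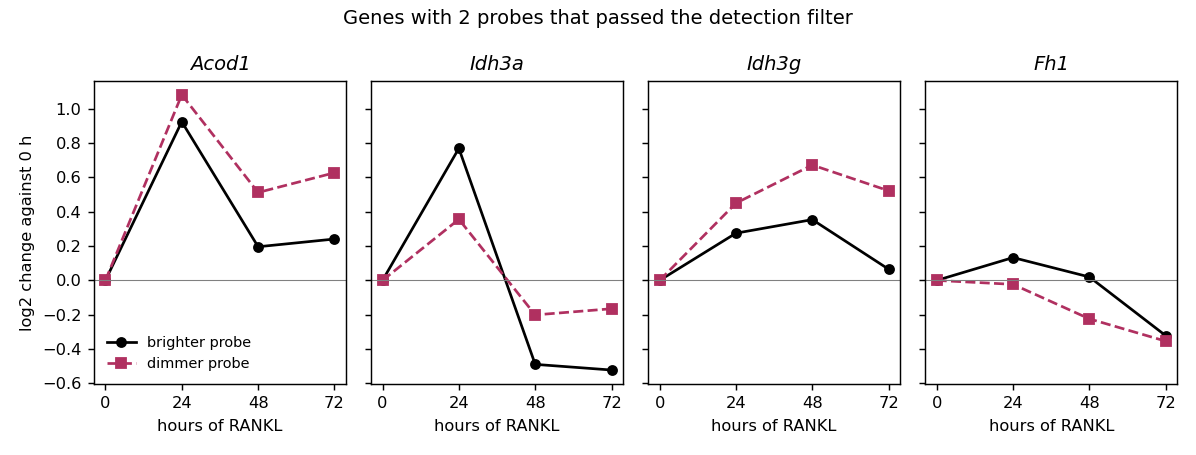
Log2 change against 0 h (y axis) at 24, 48 and 72 h of RANKL (x axis) for the 4 genes with a pair of probes past the detection filter; the brighter probe is drawn as a solid line with circles, the dimmer as a dashed line with squares. Both Acod1 probes peak at 24 h (0.92 and 1.08), and the Fh1 probes part at 48 h (0.02 and -0.22). The brighter Idh3a probe rises and then falls below 0 h. The dimmer Idh3a probe has the same signs but was detected on only 7 of 24 arrays.

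Cs and Mdh2 encode citrate synthase and the mitochondrial malate dehydrogenase that supplies it with oxaloacetate, the step in which the cycle closes and starts again. The Cs arrays had 11.55, 11.64 and 11.84 at 0 h, 11.54, 11.78 and 11.92 at 24 h, 11.19, 11.31 and 11.40 at 48 h, and 11.06, 11.15 and 11.33 at 72 h. The Mdh2 arrays had 11.03, 11.45 and 11.66 at 0 h, 11.35, 11.56 and 11.61 at 24 h, 10.53, 10.87 and 10.98 at 48 h, and 10.39, 10.62 and 10.75 at 72 h. For both genes the arrays of 0 and 24 h overlapped, and every array of 48 and 72 h was below every one of 0 and 24 h. Cs changed by 0.08 at 24 h (adjusted p = 0.224) and fell by 0.37 at 48 h (1.29-fold, adjusted p = 8.09e-07) and 0.49 at 72 h (1.40-fold, adjusted p = 2.54e-09). Mdh2 changed by 0.11 at 24 h (adjusted p = 0.22) and fell by 0.57 at 48 h (1.48-fold, adjusted p = 7.37e-08) and 0.79 at 72 h (1.73-fold, adjusted p = 4.13e-11). At 72 h Mdh2 was also 1.17-fold below 48 h (adjusted p = 0.0258), a call lost without replicates numbered 1, 5 or 6.

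Cs, Idh2 and Mdh2 therefore had the same calls against 0 h, none at 24 h and lower at 48 and 72 h. Their promoter windows are shown beside that of Acod1 because each held a GC box, GGGCGG or its complement CCGCCC, in capitals below, and none held TATAAA. The windows of Cs (chr10:128337477-128337726, plus strand), Idh2 (chr7:80115351-80115600, minus strand) and Mdh2 (chr5:135778399-135778648, plus strand) contained 13, 17 and 23 CG dinucleotides.
Cs: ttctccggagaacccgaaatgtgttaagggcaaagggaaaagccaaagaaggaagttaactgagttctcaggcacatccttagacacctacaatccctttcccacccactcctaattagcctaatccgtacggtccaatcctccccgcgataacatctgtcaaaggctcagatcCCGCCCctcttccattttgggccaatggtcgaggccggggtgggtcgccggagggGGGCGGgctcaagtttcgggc
Idh2: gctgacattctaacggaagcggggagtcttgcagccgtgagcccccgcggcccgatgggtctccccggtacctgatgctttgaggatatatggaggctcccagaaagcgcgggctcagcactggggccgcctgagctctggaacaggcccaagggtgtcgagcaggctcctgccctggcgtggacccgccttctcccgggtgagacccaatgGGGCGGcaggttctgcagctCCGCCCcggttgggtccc
Mdh2: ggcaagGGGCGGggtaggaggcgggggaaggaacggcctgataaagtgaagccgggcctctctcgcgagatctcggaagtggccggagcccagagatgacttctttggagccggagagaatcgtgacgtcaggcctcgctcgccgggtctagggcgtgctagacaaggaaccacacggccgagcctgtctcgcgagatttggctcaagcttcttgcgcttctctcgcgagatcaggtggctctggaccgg
A GC box was also found in both windows of Idh1 and in that of Fh1, whose courses differed from these, and in some windows of Ogdh. The Idh3g window held no GC box but an ETS element, present in 6.91% of all windows. An E box was found in some windows of Ogdh and in no window of the other genes, beside 6.02% of all windows.

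Ogdh encodes the E1 component of the 2-oxoglutarate dehydrogenase complex, the step after the isocitrate dehydrogenases, and its signal was higher at 48 and 72 h than at 0 h. Its arrays had 10.33, 10.51 and 10.64 at 0 h, 10.40, 10.66 and 10.86 at 24 h, 10.78, 10.88 and 11.12 at 48 h, and 10.78, 11.06 and 11.25 at 72 h. The arrays of 0 and 24 h overlapped, and those of 48 and 72 h overlapped each other above the 0 h range. It changed by 0.15 at 24 h (95% confidence interval 0.01 to 0.30, adjusted p = 0.053; called without replicates numbered 4 or 6) and rose by 0.42 at 48 h (1.34-fold, adjusted p = 2.31e-06) and 0.54 at 72 h (1.46-fold, adjusted p = 1.35e-08). At 48 h against 24 h it rose by 0.26 (1.20-fold, adjusted p = 0.00108), a call lost with median scaling, and at 72 h against 48 h it changed by 0.13 (adjusted p = 0.164). Its partner subunits went the other way at 72 h: Dlst, the E2 component, fell by 0.36 (adjusted p = 1.69e-07) and Dld, the shared E3 component, by 0.24 (adjusted p = 0.000694), and the differences between these genes were not tested. The Dlst fall at 72 h was not called with the mean of its probes.

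Fh1, the fumarate hydratase, was lower at 72 h than at 0 h. Its arrays had 10.86, 10.92 and 11.04 at 0 h, 10.95, 11.06 and 11.18 at 24 h, 10.85, 10.96 and 11.09 at 48 h, and 10.50, 10.59 and 10.80 at 72 h. The arrays of 0, 24 and 48 h overlapped, and those of 72 h were below all of them. Fh1 fell by 0.32 at 72 h against 0 h (1.25-fold, adjusted p = 1.85e-06) and by 0.34 against 48 h (1.27-fold, adjusted p = 2.91e-06). Its 24 h rise of 0.13 (1.10-fold, adjusted p = 0.0285) was lost with other scalings and without replicates numbered 1, 4, 5 or 6. The second probe gave -0.02 at 24 h and -0.22 at 48 h (adjusted p = 0.00565), where the brighter probe gave 0.02. Both probes were lower at 72 h than at 0 h, but at 72 h against 48 h the second changed by -0.13 and was not called (adjusted p = 0.17).

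**Figure D4:**
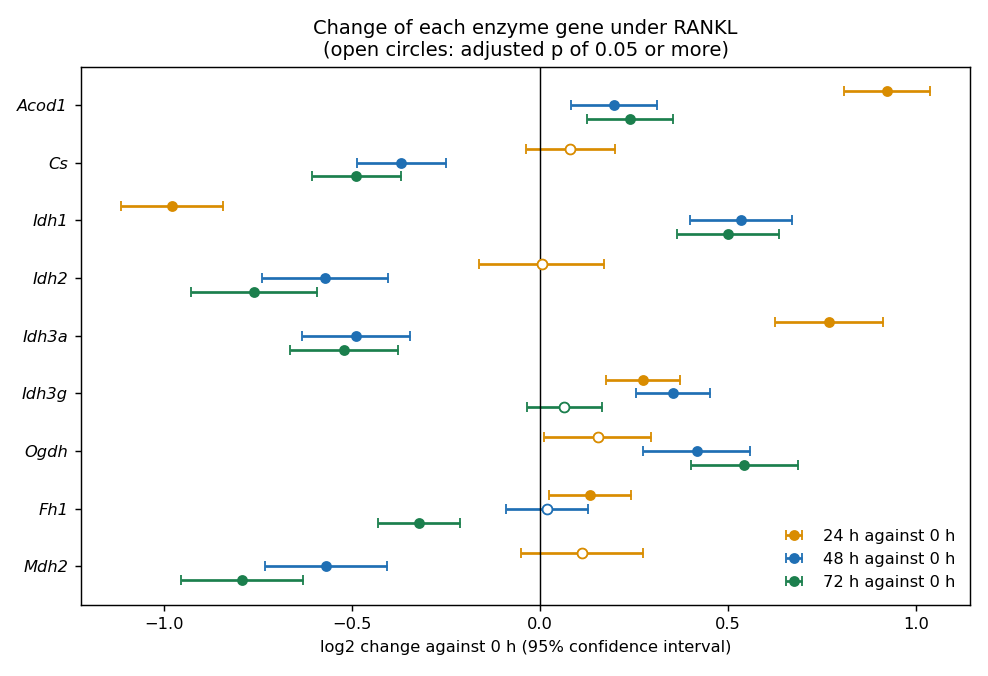
Log2 change of each enzyme gene against 0 h (x axis) with its 95% confidence interval from limma, at 24 h (orange), 48 h (blue) and 72 h (green), for the representing probe. Open circles did not pass an adjusted p of 0.05. Idh1 lies at -0.98 at 24 h and 0.54 at 48 h, on opposite sides of 0, while Cs, Idh2 and Mdh2 lie near 0 at 24 h and below it at 48 and 72 h.

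The other enzymes of the cycle were mostly lower at the end. Of 8 tested, 2 rose and 2 fell at 24 h, 2 rose and 4 fell at 48 h, and 1 rose and 7 fell at 72 h, beside the shares of all genes given above. Their median log2 change was -0.09, -0.17 and -0.35. Sdhb, Sdhc and Sdhd, subunits of the succinate dehydrogenase that itaconate inhibits, fell by 0.33, 0.65 and 0.38 at 72 h. Suclg1, a succinyl-CoA ligase subunit, fell by 0.53 at 72 h by its brightest probe, a call lost with its second. Suclg2, the GTP-forming subunit, rose by 0.57 at 24 h and fell by 0.17 at 72 h. Idh3b, the third subunit gene of the NAD enzyme, rose by 0.38 at 48 h, as Idh3g did and Idh3a did not, and its 0.15 at 72 h turned negative with other scalings. Sdha and Sucla2 did not pass the detection filter.

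Genes that feed the cycle moved in both directions. Of 10 tested genes of pyruvate entry, 2 rose and 5 fell at 24 h, and 4 rose and 4 fell at 48 h. At 72 h 4 rose and 5 fell, beside the shares of all genes given above. Their medians were -0.15, 0.03 and -0.11. Pdp1, a phosphatase that activates pyruvate dehydrogenase, changed by -0.92 at 24 h, 1.32 at 48 h and 1.24 at 72 h, the signs that Idh1 had at the same times, though its 24 h fall was not called with its second probe. The kinase gene Pdk1, which acts against Pdp1, fell by 0.39, 0.65 and 0.84. Related genes were mixed: the phosphatase gene Pdp2 fell by 0.28, 0.21 and 0.44, and the kinase gene Pdk3 fell by 0.39, 0.17 and 0.58. Pdk2, a dim kinase gene (mean log2 signal 7.07 at 0 h), fell by 0.23 at 24 h and rose by 0.20 and 0.22 at 48 and 72 h. Among 7 tested genes of glutamine and 2-oxoglutarate supply, 3 rose and 3 fell at 48 h, against 33.1% and 39.2% of all genes. Gpt2, the mitochondrial alanine aminotransferase, fell by 0.59, 0.46 and 0.62, and Glul, glutamine synthetase, rose by 0.27, 0.30 and 0.26. Glul was dim, with a mean log2 signal of 6.75 at 0 h and 7.06 at 48 h. The Ogdh probe that was not detected had 6.24 at 0 h.

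Genes for the exchange of citrate, malate and aspartate between mitochondrion and cytosol were mostly lower. Of 11 tested, 1 rose and 6 fell at 24 h, 0 rose and 8 fell at 48 h, and 1 rose and 6 fell at 72 h. Over all genes 37.8%, 39.2% and 39.4% fell at these times. At 72 h 63.6% of the list was called, against 73.5% of all genes. The medians of the list were -0.30, -0.49 and -0.41, beside -0.05, -0.03 and -0.03 over all genes. Slc25a1, the mitochondrial citrate carrier, fell by 1.20, 1.03 and 1.08, and Acly, which splits the exported citrate, by 0.48, 0.61 and 0.74. Me1 and Me2, the malic enzymes of cytosol and mitochondrion, fell by 0.82 and 0.84 at 48 h. Got2, the mitochondrial aspartate aminotransferase and partner of Mdh2 in the malate-aspartate shuttle, changed by 0.08 at 24 h (adjusted p = 0.098) and fell by 0.83 at 48 h and 1.02 at 72 h. Their cytosolic counterpart Mdh1 changed by 0.11 at 48 h (adjusted p = 0.331) and -0.05 at 72 h (adjusted p = 0.683), where Mdh2 fell; the difference between Mdh1 and Mdh2 was not tested.

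Genes of mitochondrial import and content were mostly higher at 24 h and lower afterwards, as Idh3a was. Of 11 tested, 8 rose and 0 fell at 24 h, and 1 rose and 8 fell at both 48 and 72 h. These counts stand beside the shares of all genes given above. The medians were 0.29, -0.21 and -0.27. Phb2, a prohibitin of the inner membrane, rose by 0.71 at 24 h and fell by 0.44 at 48 h and 0.47 at 72 h. Tomm40, the channel of the outer membrane translocase, changed by 0.68, -0.47 and -0.46, though its 24 h rise was lost with its second probe. Lonp1, the matrix protease, changed by 0.07 at 24 h (adjusted p = 0.306) and fell by 0.51 and 0.67. With 75th percentile scaling 5 of these genes rose at 24 h and 10 fell at 48 h.

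**Figure D5:**
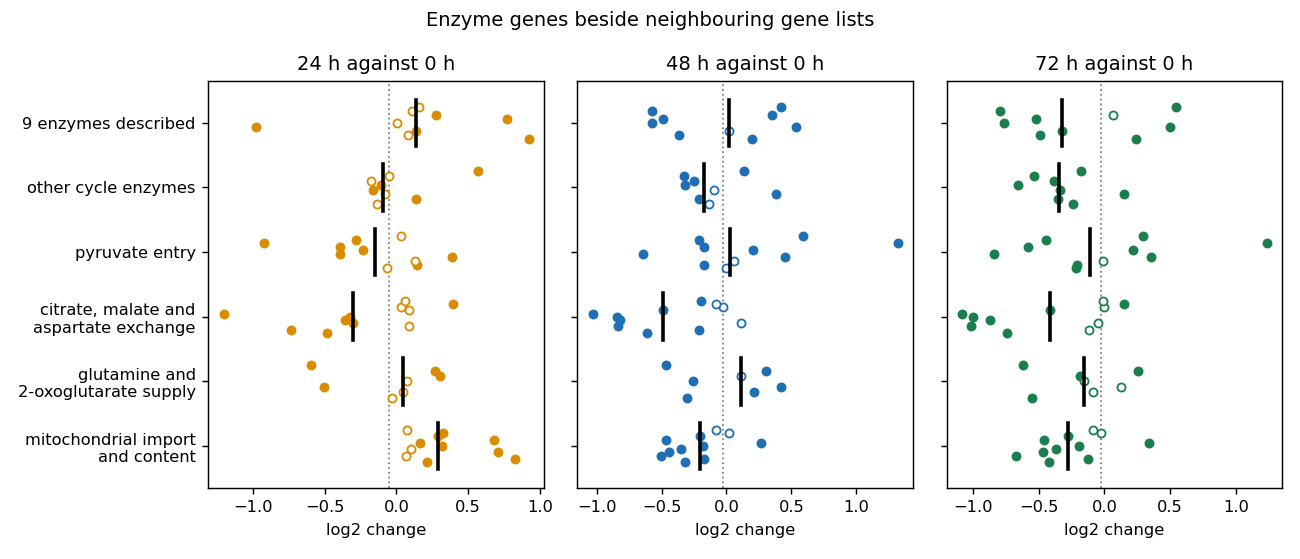
Log2 change against 0 h (x axes) at 24, 48 and 72 h for the tested genes of each list (rows). Filled points passed an adjusted p of 0.05 and open points did not, the black bar is the median of the list, and the dotted line is the median of all 9917 genes. At 72 h the medians were -0.32 for the 9 enzymes, -0.35 for the other cycle enzymes and -0.41 for citrate, malate and aspartate exchange.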

How the data were processed

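Signals were measured on Illumina mouse bead arrays for 24 samples. The deposited table gives, for every probe, a signal intensity and a detection p-value that the authors exported from GenomeStudio without normalization between arrays; the lowest intensity is 26.53, so background was not subtracted. A second deposited table holds the authors' processed values, which follow the log2 signal at slopes of 0.9933 to 0.9936 and served only as an alternative. These values are not quantile normalized, although the study's methods name that step, and how they were centred is not given in the sources used here.

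Probe genes came from the platform annotation: 34885 probes have 1 symbol, 18 several and 10378 none. Signals were log2 transformed and quantile normalized, as in the study's methods. A probe was kept (18346 were) if its detection p was below 0.05 in 3 or more arrays of some time, and each gene was represented by its brightest kept probe. limma 3.58.1 in R 4.3.3 was fitted with 1 mean per time over all 24 arrays (20 residual degrees of freedom), with a trended prior, and tested on simulated data. The difference within arrays of paired isocitrate dehydrogenase genes was tested by exact permutation. The members and all gene lists were chosen with earlier results of these data known. The genes named are all 9 members, every tested cycle enzyme, and from each other list genes among the 3 that rose most and the 3 that fell most at 48 h. The genes most like Acod1 were taken by the highest Pearson r over the 24 arrays. Me1, Acly, Mdh1, Pdk2, Pdk3, Il6, Nos2, Ptgs2, Nlrp3, Il12b, Pcna, Itgb3, Calcr and Atp6v0d2 fall outside these rules and were chosen after the results were seen. Alternatives covered background, scaling, filter, probe choice, test, array weights, replicate block and left-out replicates.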

Additional observations from a re-analysis of the deposited data

Results flagged for a closer look

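In 4 of the 36 sets of 6 arrays (9 genes at 4 times), 1 array stood apart from the rest by more than 0.625 of the set's range; chance flags about 1 in 20 sets. For Idh1 at 48 h, replicate 4 was highest at 13.17, with the next array at 12.87. For Idh1 at 72 h, replicate 3 was lowest at 12.63, with the next at 12.81. For Idh3a at 72 h, replicate 4 was highest at 8.88, with the next at 8.54. For Idh3g at 48 h, replicate 4 was highest at 12.94, with the next at 12.81. Without replicate 4 or 3 the calls of these genes at these times against 0 h did not change.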

How the results depend on the processing

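The 45 changes of the 9 enzymes were recomputed under 21 alternatives each, and of the 945 values 834 kept their direction and their side of the threshold, 63 lost the call and 26 gained one. The sign changed in the other 22, in 17 of them between values of which neither was called, at most 0.11 in size (for example Cs, Idh2 and Mdh2 at 24 h with 75th percentile scaling). At 24 h against 0 h the 5 called enzymes became 3 with median scaling, with 75th percentile scaling, with the methods' t-test and Bonferroni adjustment, and with a fold of at least 1.5. At 48 h the 8 became 1 with Bonferroni adjustment and 0 with the fold, and at 72 h the 8 became 1 and 2. At 48 h against 24 h the 7 became 3 with Bonferroni adjustment and 4 with the fold. At 72 h against 48 h the 3 became 5 with either scaling and 0 with Bonferroni adjustment or the fold. The 5 sign changes that touched a called value were Idh3g at 72 h with median scaling (-0.17) and 75th percentile scaling (-0.16), Fh1 at 24 h with its second probe (-0.023), and Fh1 at 48 h with the mean of its probes (-0.10) or the second (-0.22); Idh3a minus Idh3g at 24 h also reversed with the second probes (-0.10). The cause was not tested. Leaving out one replicate number gave 4 to 5 called enzymes at 24 h, 8 at 48 h, 8 at 72 h, 7 to 8 at 48 h against 24 h and 2 to 4 at 72 h against 48 h. Over all genes, 2898 rose and 3749 fell at 24 h, but 2261 and 4763 with 75th percentile scaling, whose median change was -0.13; at 72 h against 48 h 1730 rose and 1921 fell, but 800 and 2062 with median scaling. The replicate block gave 6, 8 and 8 called enzymes at 24, 48 and 72 h against 0 h, with Ogdh called at 24 h (adjusted p = 0.0152) and Fh1 at 48 h against 24 h (adjusted p = 0.0413). The numbers were not taken to pair the samples, since the labels name no culture, animal or batch that same-numbered samples share. Same-numbered arrays correlated at -0.21 to 0.49 (median 0.14), beside -0.41 to 0.53 (median -0.01) for other pairs across times. Of 24 arrays, 10 correlated best with their own number, so the numbers may carry some shared structure, which was not tested. A chip or scan block was not run because the headers give neither. Dim signals limit Acod1 and Idh3a most, whose 48 h against 24 h changes went to -0.87 and -1.46 with normexp background correction.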
